A study of Mus musculus with 2 samples.

Results

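The genes described here are 10 transcripts by which tuft cells are recognised: Dclk1, Pou2f3, Trpm5, Il25, Alox5ap, Ltc4s, Ptgs1, Sh2d6, Rgs13 and Avil, 10 of the 31053 genes in the files. They were taken by symbol, and all 10 were detected in both libraries. The cells were jejunal and came from Lgr5-eGFP-IRES-CreER mice, which express GFP from the locus of the stem cell receptor Lgr5, and were sorted for GFP before droplet capture with 10x 3′ chemistry. The conditions were an FZD5/8 antagonist, directed at a pair of Frizzled receptors for Wnt ligands, and an Fc control. All mice carried the Lgr5 reporter allele, and both groups are labelled as females of 10 to 12 weeks, with 3 mice and 1 library per condition. The sources used here do not give the dose or the duration, and cells cannot be assigned to single mice. Each comparison is therefore between 1 antagonist library and 1 control library, without a replicate check and without a test. All intervals are 95% intervals that cover counting error only.

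Tuft cells are rare chemosensory cells of the gut lining. They taste the lumen through G protein-coupled receptors, a phospholipase C pathway and the cation channel Trpm5, and they answer with acetylcholine, the cytokine Il25 and lipid mediators. In the mouse small intestine this circuit alerts innate lymphoid cells to worms and protists. The lipid mediators are eicosanoids: cysteinyl leukotrienes need 5-lipoxygenase with its activating protein Alox5ap and then Ltc4s, and prostaglandins need a cyclooxygenase such as Ptgs1. Pou2f3 is the transcription factor without which tuft cells do not form in mice.

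Several facts on the libraries bear on every value below. The antagonist library had 13085 barcodes and 55810293 UMIs, and the control library had 12672 barcodes and 67411637 UMIs. Cells were kept from 500 genes upward and up to 20% mitochondrial UMIs, 11019 antagonist cells (median 2732 UMIs) and 11263 control cells (median 4478 UMIs). Both libraries are labelled female, but Y-linked genes were at 5.60 CPM (UMIs per 1000000 UMIs) in the antagonist library and 106 CPM in the control library. Xist, the RNA that silences an X chromosome, was at 512 and 1.33 CPM. A difference in the sex of the mice thus cannot be told apart from the condition, for these or any other genes. The libraries shared 145 cell barcodes, 127 of them among kept antagonist cells and 85 among kept control cells. At least 3 of 14 stem cell markers were found in 32.3% of antagonist cells and 88.9% of control cells, although all are labelled Lgr5+ stem cells. Doublets were not removed.

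The octamer ATGCAAAT, the classic binding sequence of POU factors, was looked for in the promoters of the members. RefSeq windows of 300 bases (250 before and 50 after the start; GRCm38.p6) were at hand for 7 of the 10 genes, 8 windows with both of Dclk1. Pou2f3, Il25 and Alox5ap had none. The octamer, read on both strands, was in 0 of 8 windows and in 1.74% of all 32851 windows. The 7 letters ATGCAAA, contained in the octamer and chosen after the windows were seen, were in 1 of 8, that of Avil, and in 4.63% of all windows. TATAAA on the sense strand was in 0 of 8 windows and in 8.32% of all. Avil is shown because it carried 2 matches, in capitals, at positions 136 (antisense) and 236 (sense) counted from the 5′ end. Sh2d6 and Rgs13 are shown as windows without a match, from abundant members that lie on opposite sides of equality below. The windows are chr10:127000459-127000758 (plus strand), chr6:72519987-72520286 (minus strand) and chr1:144177323-144177622 (minus strand).
Avil: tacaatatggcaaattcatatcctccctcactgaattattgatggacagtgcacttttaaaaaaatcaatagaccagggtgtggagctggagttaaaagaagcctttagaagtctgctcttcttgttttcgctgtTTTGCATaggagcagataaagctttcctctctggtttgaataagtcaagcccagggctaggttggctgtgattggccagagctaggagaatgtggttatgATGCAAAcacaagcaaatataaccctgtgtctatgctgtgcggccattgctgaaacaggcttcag
Sh2d6: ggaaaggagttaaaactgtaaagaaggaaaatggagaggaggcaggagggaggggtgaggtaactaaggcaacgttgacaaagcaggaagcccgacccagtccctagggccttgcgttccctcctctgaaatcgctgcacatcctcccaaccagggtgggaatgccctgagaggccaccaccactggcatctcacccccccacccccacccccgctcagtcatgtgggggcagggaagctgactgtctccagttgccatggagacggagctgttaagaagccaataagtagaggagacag
Rgs13: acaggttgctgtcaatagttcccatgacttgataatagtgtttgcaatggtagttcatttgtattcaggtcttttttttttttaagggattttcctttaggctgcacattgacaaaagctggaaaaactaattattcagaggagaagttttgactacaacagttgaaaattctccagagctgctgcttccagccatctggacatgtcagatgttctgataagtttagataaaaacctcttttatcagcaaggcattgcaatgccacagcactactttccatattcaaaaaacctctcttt
A match is a run of letters and not a site, and a window without one says nothing of the factor.

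In all kept cells the summed level of the members was slightly lower in the antagonist library, and no member differed by 1.5-fold. The 10 genes reached 9292 UMIs, 171 CPM (168 to 175), in the antagonist library and 13325 UMIs, 201 CPM (198 to 205), in the control library. The ratio was 0.850 (0.827 to 0.873), a log2 ratio of -0.23, which turned to 0.24 when each cell had equal weight in place of each UMI. Of all 13757 genes with at least 20 UMIs, 19.5% were lower by 1.5-fold or more and 6.51% were higher. A smaller number of tuft cells and less RNA in each of them cannot be told apart in such sums.

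The signalling members differed little. Dclk1 (GRCm38 chromosome 3, 55242364 to 55539068, plus strand), a microtubule-associated kinase and the most used tuft cell marker, had 1307 UMIs, 24.1 CPM, in the antagonist library and 1863 UMIs, 28.1 CPM, in the control library. Its ratio was 0.855 (0.796 to 0.918). Trpm5 (chromosome 7, 143069153 to 143094642, minus strand), the calcium-activated channel of taste transduction, was at 13.7 and 13.4 CPM, with a ratio of 1.02 (0.922 to 1.12). Pou2f3 (chromosome 9, 43123939 to 43210369, minus strand) was scarce, at 2.45 CPM from 133 UMIs in the antagonist library and 2.48 CPM from 164 UMIs in the control library. Il25 (chromosome 14, 54932695 to 54935837, plus strand) was the rarest, with 21 antagonist and 26 control UMIs, 0.387 and 0.393 CPM. Its interval, 0.527 to 1.82, was too wide to tell a difference of 1.5-fold from none.

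Of the eicosanoid genes, both members of the leukotriene branch were lower in the antagonist library, while the interval of the cyclooxygenase includes equality. Alox5ap (chromosome 5, 149264767 to 149288153, plus strand), which hands arachidonic acid to 5-lipoxygenase, was the most abundant member in both libraries. It was at 32.4 CPM in the antagonist library and 46.4 CPM in the control library, a ratio of 0.698 (0.658 to 0.740) and the lowest among the 10. Ltc4s (chromosome 11, 50236461 to 50238616, minus strand), which joins glutathione to leukotriene A4, was at 22.6 and 28.0 CPM, with a ratio of 0.807 (0.751 to 0.868). Ptgs1 (chromosome 2, 36230426 to 36252272, plus strand), the constitutive cyclooxygenase, was at 6.09 and 5.36 CPM. Its ratio was 1.14 (0.975 to 1.32). In cells thinned to 3000 UMIs all 3 genes were lower, with log2 ratios of -1.01 for Alox5ap, -0.67 for Ltc4s and -0.65 for Ptgs1, and with equal weight for each cell they were at -0.017, -0.0046 and 0.87. The contrast between the branches was thus not seen in thinned cells.

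The remaining members are a G protein regulator, an adaptor and an actin-binding protein. Rgs13 (chromosome 1, 144138654 to 144177372, minus strand), which shortens G protein signals, was at 26.9 CPM in the antagonist library and 35.4 CPM in the control library, a ratio of 0.758 (0.709 to 0.809). Avil (chromosome 10, 127000709 to 127020994, plus strand), advillin, an actin-bundling protein of the villin family, was at 14.98 and 16.4 CPM, with a ratio of 0.911 (0.831 to 0.998). Sh2d6 (chromosome 6, 72513641 to 72521707, minus strand), which encodes an SH2-domain protein, was at 27.6 CPM in the antagonist library and 25.2 CPM in the control library. With a ratio of 1.10 (1.02 to 1.18) it was the only member whose interval lay wholly above equality. With equal weight for each cell, Dclk1, Rgs13 and Avil turned to log2 ratios of 0.10, 0.19 and 0.22.

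The order of levels was alike at the top and the bottom. Alox5ap came first in both libraries, and Ptgs1, Pou2f3 and Il25 were the lowest 3 in that order. In between, the antagonist order was Sh2d6, Rgs13, Dclk1, Ltc4s, Avil and Trpm5, and the control order was Rgs13, Dclk1, Ltc4s, Sh2d6, Avil and Trpm5. In the antagonist library the counting intervals of Sh2d6 (26.2 to 29.0 CPM) and Rgs13 (25.5 to 28.3 CPM) overlapped, as did those of Dclk1 and Ltc4s and those of Avil and Trpm5. In the control library only Dclk1 (26.9 to 29.4 CPM) and Ltc4s (26.7 to 29.3 CPM) overlapped among neighbouring ranks. The UMIs tag transcript ends, so these levels were not divided by gene length. Other annotated transcripts overlap Dclk1, Alox5ap, Ltc4s and Ptgs1, and the sources used here do not say how the counting used strand.

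The members were spread over more cells in the antagonist library. Cells with at least 3 members detected numbered 646 of 11019 in the antagonist library, 5.86% (5.43 to 6.32), and 294 of 11263 in the control library, 2.61% (2.32 to 2.92). Cells with 1 or 2 members made up 9.36% and 4.16%, and cells with none 84.8% and 93.2%. Of the 646 antagonist cells 45.0% had 3 or 4 members, and of the 294 control cells 8.16%. The median was 5 members in these antagonist cells and 8 in these control cells. At the upper end, 163 antagonist cells (25.2% of the 646) and 218 control cells (74.1% of the 294) had 7 or more. The number with 6 or more was 251 and 250.

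**Figure D1:**
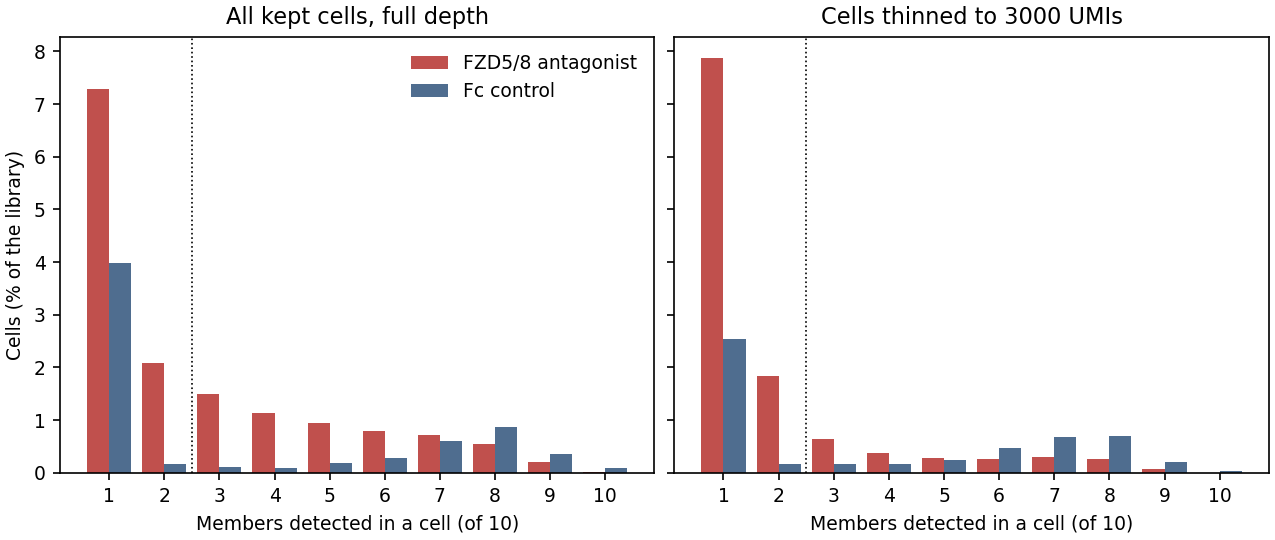
Share of cells by number of members detected (bars, FZD5/8 antagonist left of Fc control), at full depth and with each cell thinned to 3000 UMIs; the dotted line marks the limit of 3 members. At full depth antagonist cells are more frequent at 1 to 7 members (7.28% and 3.99% at 1 member) and control cells at 8 and more (0.545% and 0.870% at 8 members).

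With cells thinned to 3000 UMIs the order of the shares turned round, but the intervals then overlapped. At least 3 members were then found in 110 of 5036 antagonist cells, 2.18% (1.80 to 2.63), and in 203 of 7536 control cells, 2.69% (2.34 to 3.08). Thinning left out 5983 antagonist and 3727 control cells, and the cells it left out include many that were rich in the members, as given below. In the thinned cells 9 members had at least 20 UMIs, of which all 9 had lower levels in the antagonist library and 8 passed 1.5-fold. Of all 12361 genes with 20 UMIs in thinned cells, 24.3% were lower by 1.5-fold or more and 6.46% were higher. Alox5ap was at 28.1 CPM in thinned antagonist cells and 56.5 CPM in thinned control cells, and Rgs13 at 20.6 and 42.4 CPM. Trpm5, whose interval in all cells includes equality, was at 10.5 CPM in thinned antagonist cells and 17.1 CPM in thinned control cells. For Ptgs1 the levels were 4.17 and 6.55 CPM (ratio 0.637, 0.467 to 0.861). Pou2f3 was the exception to the fold, at 2.32 and 2.88 CPM, and Il25 had 1 UMI in thinned antagonist cells and 8 in thinned control cells.

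Antagonist cells with 3 or more members ran from shallow cells rich in the members to very deep cells poor in them. Most control cells with 3 or more members were rich in them. For description, cells with 3 or more members in which the members made up at least 20 of every 10000 UMIs are called member-rich. This limit was chosen after the values were seen. It cuts a continuous score, so that member-rich cells are a range and not a cell type. In the range from 10 to 30 per 10000 there were 72 antagonist and 37 control cells with 3 or more members. Cells with 1 or 2 members, never called member-rich, reached up to 46.5 per 10000 in the antagonist library and 15.2 in the control library.

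Member-rich cells numbered 261 in the antagonist library, 2.37% (2.09 to 2.67), and 262 in the control library, 2.33% (2.06 to 2.62). The intervals overlap, but the shares differed in opposite directions between bands of depth, as given below. The remaining cells with 3 or more members numbered 385 in the antagonist library and 32 in the control library. Their median depth was 30072 UMIs in the antagonist library and 11892.5 in the control library, and in 289 of the 385 antagonist cells the members made up fewer than 5 of every 10000 UMIs. Member-rich antagonist cells had a median of 1980 UMIs and member-rich control cells one of 4594 UMIs, close to the 4478 of all control cells. Of these cells, 190 of 261 in the antagonist library and 68 of 262 in the control library had 3000 UMIs or fewer, below or at the depth used for thinning.

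**Figure D2:**
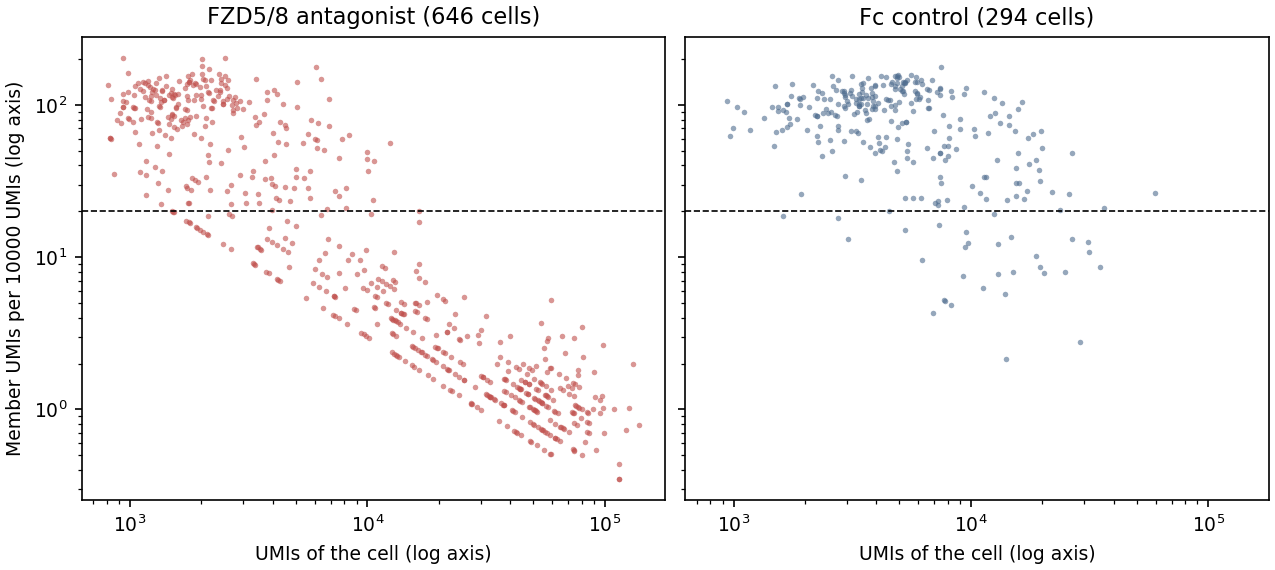
Each point is a cell with 3 or more members, placed by its UMIs (log axis) and by its member UMIs per 10000 (log axis), with the FZD5/8 antagonist on the left and the Fc control on the right; the dashed line is the limit of 20. The 385 antagonist cells below the line run down to 0.348 per 10000 at high depth, whereas 32 of 294 control cells lie below it.

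Above 10000 UMIs the share of cells with 3 or more members was higher in the antagonist library, and below it the order varied between bands of depth. Among cells above 20000 UMIs it was 62.5% in the antagonist library (228 of 365) and 5.16% in the control library (13 of 252). Between 10000 and 20000 UMIs it was 21.5% and 3.72%. Between 5000 and 10000 UMIs it was 3.66% and 2.35%, between 3000 and 5000 UMIs 2.35% and 3.24%, and between 2000 and 3000 UMIs 3.43% and 2.97%, and in each of these bands the intervals overlap. Between 1000 and 2000 UMIs it was 4.25% (3.55 to 5.05) and 1.47% (0.972 to 2.13), which do not overlap. The member-rich share between 1000 and 2000 UMIs was 3.94% (3.27 to 4.72) in the antagonist library and 1.42% (0.928 to 2.07) in the control library. Between 3000 and 5000 UMIs it was 1.46% (1.02 to 2.02) and 3.17% (2.52 to 3.92). In neither band do these intervals overlap, and in all other bands they do. Of member-rich cells, above 20000 UMIs there were 0 of 365 in the antagonist library, which allows a share of up to 1.01% by the exact interval, and 6 of 252 in the control library.

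**Figure D3:**
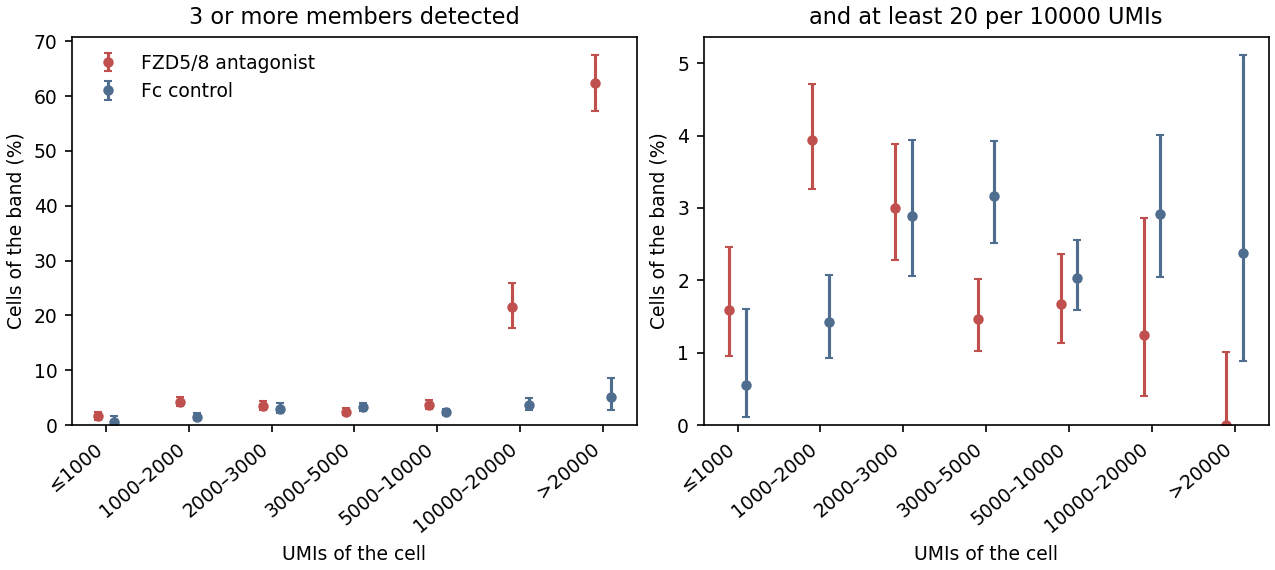
Share of cells in each band of UMIs (points, with exact 95% binomial intervals as bars) that had 3 or more members (left panel) and that were also member-rich (right panel); the vertical scales differ. The antagonist share reaches 62.5% above 20000 UMIs on the left and is 0 there on the right, while the control shares stay at or below 5.16% on the left.

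Antagonist cells with 3 or more members that were not member-rich also carried markers of other lineages. These were 385 cells, of which 310 were above 10000 UMIs, and 92.99% of the 385 had at least 3 goblet cell markers, 97.4% at least 3 Paneth cell markers and 98.4% at least 3 enterocyte markers. In the 32 such control cells these shares were 31.2%, 100% and 71.9%. Over all kept cells they were 23.6%, 55.6% and 68.2% in the antagonist library and 9.55%, 95.2% and 47.1% in the control library. In antagonist cells above 10000 UMIs with fewer than 3 members they were 57.9%, 74.2% and 96.3%. Such control cells had 23.9%, 96.4% and 88.4%. At least 3 markers of each of 3 or more of 4 lineages (enterocyte, goblet, Paneth and enteroendocrine) were found in 92.2% of the 385 antagonist cells and in 18.8% of the 32 control cells. Among member-rich cells this share was 2.68% in the antagonist library and 5.34% in the control library. Cells above 10000 UMIs with fewer than 3 members gave 51.8% and 19.7%. Shared barcodes lay here as well: 76 of the 385 antagonist cells, with a median of 75219.5 UMIs, had a barcode that was also in the control library, and none of the 32 control cells did. Without shared barcodes the log2 ratio of the summed level in cells with 3 or more members was -2.86 in place of -3.50. The part of depth, other lineages and shared barcodes in the counts was not tested.

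The label of the genes was checked with 6 tuft cell markers that are no members: Gfi1b, Gnat3, Gng13, Plcb2, Lrmp and Cd24a. At least 3 of them were found in 44.4% of member-rich antagonist cells and 60.3% of member-rich control cells. The shares were 13.8% and 40.6% in the cells with 3 or more members that were not member-rich. With fewer than 3 members they were 0.125% and 0.0547%. Summed, the 6 markers were at 5131 CPM in member-rich antagonist cells and 3775 CPM in member-rich control cells, against 114 and 143 CPM in cells with fewer than 3 members. Most of these sums was Cd24a, at 3767 and 2653 CPM in member-rich cells and 105 and 142 CPM in cells with fewer than 3 members. Without Cd24a the sum was 1365 CPM in member-rich antagonist cells and 1122 CPM in member-rich control cells, and 8.56 and 1.08 CPM in cells with fewer than 3 members. Only in the order of the libraries did Gnat3 go the other way, at 6.95 CPM in member-rich antagonist cells and 34.3 CPM in member-rich control cells. In cells with fewer than 3 members it was at 0.0755 and 0.0156 CPM, from 3 UMIs and 1 UMI.

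Alox5ap, Ltc4s and Rgs13 are also used by mast cells and other leukocytes. Leukocyte markers were therefore read in cells with 3 or more members and in member-rich cells. All 10 mast cell and basophil markers were at 0 UMIs in the cells with 3 or more members of both libraries. Markers of T, NK and innate lymphoid cells were at 0 of 11 genes in member-rich antagonist cells and at 1 of 11, with 3 UMIs, in member-rich control cells. Of 12 myeloid markers, 5 were detected in member-rich antagonist cells, with 6 UMIs in all, and 4 in member-rich control cells, with 16 UMIs in all. Of 9 B and plasma cell markers, 1 was detected in member-rich cells of each library, with 4 antagonist and 11 control UMIs. In cells with 3 or more members the T, NK and innate lymphoid list was at 2.88 CPM (42 UMIs) in the antagonist library and 1.43 CPM (3 UMIs) in the control library. The myeloid list was there at 9.32 CPM (136 UMIs) and 9.98 CPM (21 UMIs), and the B and plasma list at 3.36 CPM (49 UMIs) and 6.65 CPM (14 UMIs). Stroma and endothelium markers were at 0 of 10 genes in member-rich cells of both libraries.

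Inside the cells with 3 or more members every member was lower in the antagonist library. These cells were chosen by the members, so their level is a description. The sum was 539 CPM in the antagonist library and 6081 CPM in the control library, 11.3-fold lower. To keep a gene from choosing its own cells, each member was then read in cells with 3 or more of the other 9. Alox5ap was at 109 CPM in such antagonist cells and 1443 CPM in such control cells, 13.2-fold lower (interval of the ratio 0.0711 to 0.0809). At the other end Pou2f3 was at 6.93 and 58.0 CPM, 8.38-fold lower (0.0906 to 0.157). The others lay between. Of all 11337 genes with 20 UMIs in the cells with 3 or more members, 25.9% were lower by 1.5-fold or more and 17.6% were higher.

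Within member-rich cells the levels were close. The sum was 7457 CPM in the antagonist library and 7449 CPM in the control library, a ratio of 1.001 (0.969 to 1.03), although a limit on the sum brings the sums together by itself. Read in cells that were rich in the other 9 members, 6 members were higher in the antagonist library and 4 were lower. Of these, 2 were higher by 1.5-fold or more and none was lower by as much. In member-rich cells 13.5% of all 8321 genes with 20 UMIs were lower by 1.5-fold or more and 8.69% were higher.

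The 6 higher members in these cells were Pou2f3, Ptgs1, Sh2d6, Trpm5, Il25 and Avil, and for Il25 and Avil the interval includes equality. Pou2f3 was at 107 CPM (84.6 to 134) in antagonist cells and 69.0 CPM (56.9 to 82.9) in control cells, from 77 and 113 UMIs. Its ratio was 1.55 (1.15 to 2.10), and these intervals do not overlap. Ptgs1 was at 294 and 203 CPM, with a ratio of 1.45 (1.21 to 1.73). Sh2d6 was at 1397 CPM in antagonist cells and 987 CPM in control cells, a ratio of 1.42 (1.30 to 1.54), and so was the member with the largest gap in CPM upward. Trpm5 was at 665 and 517 CPM, with a ratio of 1.29 (1.14 to 1.45). Il25, the cytokine that activates innate lymphoid cells, had 17 UMIs in antagonist cells and 25 in control cells, 23.6 and 15.04 CPM. Its ratio of 1.57 had an interval of 0.797 to 3.03, so that at this depth no difference could be shown. Avil was at 651 and 632 CPM, with a ratio of 1.03 (0.919 to 1.16).

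The 4 lower members were again the leukotriene genes, Rgs13 and Dclk1. Alox5ap was at 1531 CPM in antagonist cells and 1873 CPM in control cells, a ratio of 0.817 (0.759 to 0.880). Ltc4s was at 800 and 948 CPM, with a ratio of 0.845 (0.762 to 0.934). Rgs13 was at 1290 CPM in antagonist cells and 1433 CPM in control cells, a ratio of 0.900 (0.831 to 0.975), and Dclk1 at 1010 and 1117 CPM, a ratio of 0.904 (0.824 to 0.991). Each of these 4 intervals lay below equality, by less than the 1.5-fold used for counting. The directions of the 10 genes in member-rich cells were those of all cells but for Pou2f3, Il25 and Avil, whose ratios in all cells lay between 0.911 and 0.988.

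**Figure D4:**
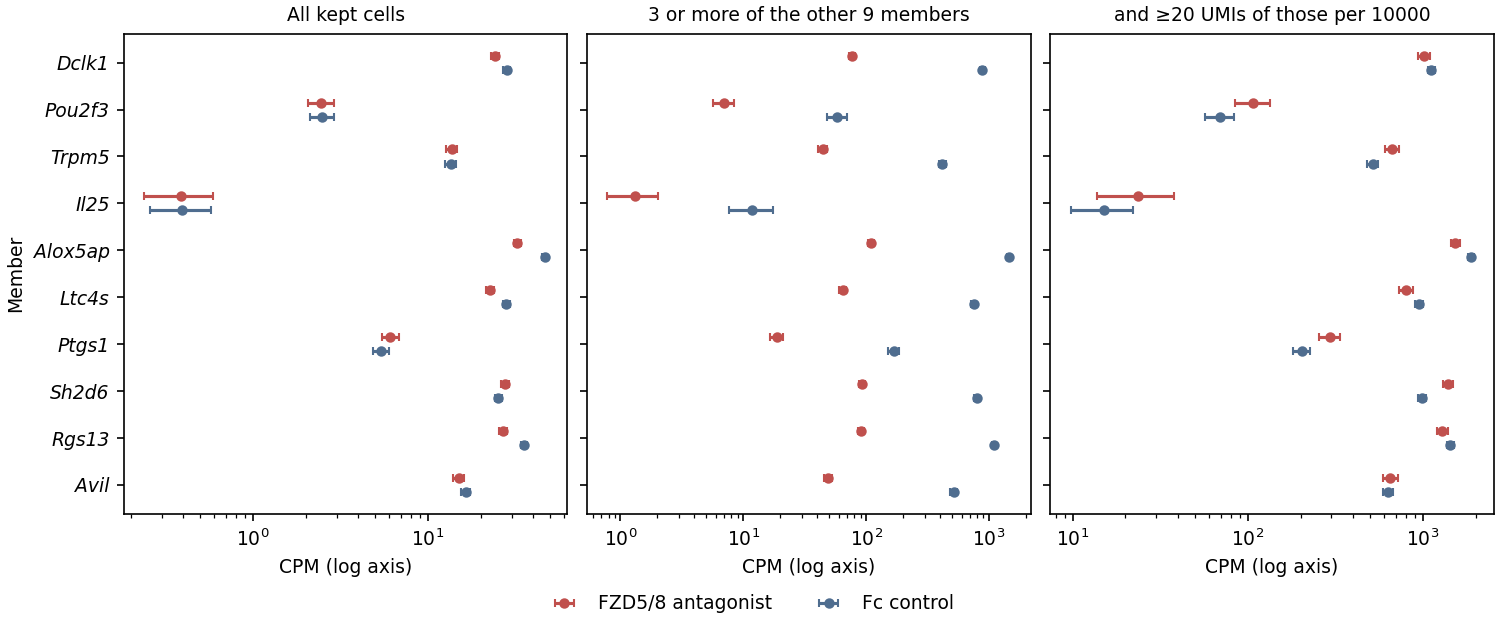
Level of each member in CPM (log axes, ranges differ between panels) in all kept cells, in cells with 3 or more of the other 9 members and in such cells that were also rich in them, with the FZD5/8 antagonist above the Fc control and exact 95% Poisson intervals as bars. The libraries lie close together in the outer panels and 8.38-fold to 13.2-fold apart in the middle one.

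The share of member-rich cells with a given member was lower in the antagonist library for all 10. Dclk1 was found in 81.3% of antagonist cells and 97.6% of control cells that were rich in the other 9, and Avil in 73.5% and 89.0%. Pou2f3, higher by level, was found in 23.1% and 34.1%. The sets of cells behind these shares had median depths of 1890 to 1983.5 UMIs in the antagonist library and 4393 to 4594 UMIs in the control library, so no order of expression was read from them. A single cell held at most 38 Rgs13 UMIs in the antagonist library, and at most 56 Alox5ap UMIs in the control library.

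Outside the cells with 3 or more members the levels were low in both libraries. All 10 genes were higher in the antagonist library, with intervals that include equality for 2. These cells were also chosen by the members, so their level is a description, and no share over all genes is given for them. Cells with 1 or 2 members stayed among them, with up to 46.5 member UMIs per 10000 in the antagonist library and 15.2 in the control library. The sum was 35.8 CPM in 10373 antagonist cells (median 2658 UMIs) and 8.16 CPM in 10969 control cells (median 4459 UMIs), a ratio of 4.39 (3.97 to 4.86). These cells held 15.3% of all member UMIs in the antagonist library and 3.92% in the control library. Dclk1 was at 5.11 CPM from 203 UMIs in antagonist cells and 0.359 CPM from 23 UMIs in control cells, a ratio of 14.2 (9.23 to 23.0). Ptgs1 had 44 UMIs in antagonist cells and 2 in control cells, a ratio of 35.5 with an interval of 9.26 to 302. Pou2f3 differed least, at 0.629 and 0.577 CPM, a ratio of 1.09 (0.629 to 1.86), and Il25 had 1 UMI in each library.

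Shares of all cells with a UMI were higher in the antagonist library for every member but Pou2f3 and Il25. Pou2f3 was found in 0.998% of all antagonist cells and 1.18% of all control cells, and in 0.231% and 0.310% of those with fewer than 3 members. Il25 was found in 0.163% and 0.213% of all cells. In each of these comparisons the intervals overlap. Dclk1 was found in 5.75% of all antagonist cells and 2.67% of all control cells, and in 1.71% and 0.210% of those with fewer than 3 members. Alox5ap was found in 6.04% and 2.82% of all cells, and in 1.97% and 0.501% outside. Trpm5 was found in 3.94% and 2.26% of all cells, and in 0.800% and 0.164% outside. For Trpm5, Ptgs1 and Avil the order of the shares turned round in thinned cells, but the intervals overlapped for each of these genes. Trpm5 was then found in 2.08% (1.71 to 2.52) of antagonist cells and 2.12% (1.81 to 2.47) of control cells. At these levels a UMI of free RNA cannot be told from low expression in the cell.

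Ltc4s stood apart from the other 9 in where it was found. In cells with fewer than 3 members it was at 7.63 CPM in the antagonist library and 4.52 CPM in the control library, while the next highest member, Alox5ap, was at 6.01 and 0.858 CPM. It was the only member detected in 208 of the 725 antagonist cells that had it, 28.7%, and in 246 of 525 control cells, 46.9%. Ltc4s made up 21.3% of all member UMIs in antagonist cells with fewer than 3 members and 55.4% in such control cells, and 10.3% and 12.2% in member-rich cells. Pou2f3, the other such gene of the control library, made up 1.76% of member UMIs outside in the antagonist library and 7.07% in the control library, and 1.45% and 0.921% in member-rich cells. Ptgs1 was alone in 27 of 239 antagonist cells, 11.3%, and in 2 of 160 control cells, 1.25%. The control share was the lowest of the 10 in the control library, whereas Il25, Trpm5 and Avil were alone less often than Ptgs1 in the antagonist library.

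The mix of members outside was closer to that of member-rich cells in the antagonist library. Dclk1 made up 14.3% of member UMIs in antagonist cells with fewer than 3 members and 13.0% in member-rich antagonist cells. In the control library these shares were 4.40% and 14.3%. Sh2d6 made up 14.6% and 17.5% in the antagonist library, and 5.93% and 12.6% in the control library. In the 385 antagonist cells with 3 or more members that were not member-rich the mix was 16.1% Dclk1, 18.0% Alox5ap, 14.8% Ltc4s and 14.1% each for Sh2d6 and Rgs13.

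Co-detection of the members was tighter in the control library. Over the 90 ordered pairs, the median share of cells with the first gene that also had the second was 50.9% in the antagonist library and 76.0% in the control library. In cells without the first gene it was 2.78% and 0.547%. In thinned cells the medians were 33.5% and 72.6%, and in member-rich cells 80.0% and 92.2%. These are descriptions over cells of 1 library each, where the genes of a pair share the depth of a cell. Depth differed between the libraries, with medians of 2732 and 4478 UMIs in all kept cells and 1980 and 4594 in member-rich cells. Thinning made depth equal but left out 5983 antagonist and 3727 control cells. Of member-rich cells, 190 of 261 antagonist and 68 of 262 control cells had 3000 UMIs or fewer. The part of depth in the order of the libraries was not tested.

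The pairs of the eicosanoid pathway show how this looks in single genes. Of cells with Alox5ap, 51.1% in the antagonist library and 77.0% in the control library also had Ltc4s, the next step of the pathway. In the other direction the shares were 46.9% and 46.7%, since many Ltc4s cells of the control library had no other member. Of cells with Ptgs1, 65.3% in the antagonist library and 93.8% in the control library had Alox5ap. Of cells with Trpm5, 62.0% in the antagonist library and 89.8% in the control library had Dclk1.

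Il25 lay in few cells, and these had most of the other members. It was found in 18 antagonist cells, with a median of 8 members detected, and in 24 control cells, with a median of 9. Of these cells, 14 and 23 were member-rich. Ptprc (CD45), a leukocyte surface phosphatase that a subset of tuft cells also expresses, was found in 4 of the 14 member-rich antagonist cells with Il25, 28.6% (8.39 to 58.1), and in 9 of the 23 such control cells, 39.1% (19.7 to 61.5). In member-rich cells without Il25 the shares were 22.3% and 36.0%. All of these intervals overlap within each library.

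Genes most like the members were those with the highest level in cells with 3 or more members relative to cells with none, by the smaller ratio of the libraries. Among 5010 genes ranked the first 12 included Col15a1, Ackr4, Folr1, Bmx, Alox5, Rac2, Nrgn, Adcy5, Basp1, Lrmp and Inpp5d. Their ratios ran between 27.0 and 62.2 in the antagonist library and between 397 and 2322 in the control library. Of all genes with 20 UMIs, 0.887% in the antagonist library and 2.35% in the control library were 10-fold or more higher there. Ranked in member-rich cells, among 2062 genes, 7 of the 12 were the same, among them Folr1, Bmx, Alox5, Rac2, Nrgn and Lrmp. Alox5, the 5-lipoxygenase that Alox5ap serves, was thus found by both rankings, at 335 CPM in member-rich antagonist cells and 226 CPM in member-rich control cells.

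A further 76 genes in 6 lists of tuft cell functions were read beside the members. In all cells 66 were measured, of which 2 (3.03%) were higher by at least 1.5-fold in antagonist cells and 14 (21.2%) lower. These shares were near or below those of all genes, 6.51% and 19.5%. The median log2 ratio was -0.10 against -0.15 for all genes. In cells with 3 or more members 62 were measured, 4 higher (6.45%) and 49 lower (79.0%), against 17.6% and 25.9% of all genes. The median was -2.91 against -0.12. In member-rich cells 58 were measured, 4 higher (6.90%) and 5 lower (8.62%), shares near or below those of all genes (8.69% and 13.5%), with a median of 0.17 against -0.02. The values below are from member-rich cells unless cells with 3 or more members are named. Of all 8321 genes measured in member-rich cells, 7.35% had intervals above equality and 7.97% below it. Intervals narrow with UMIs, and genes were measured from 20 UMIs upward, so counts of intervals also depend on how abundant the genes are.

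Of 9 taste signalling genes measured, only Gnat3 was beyond 1.5-fold. Gnat3, the alpha subunit of gustducin, had 5 UMIs in member-rich antagonist cells and 57 in member-rich control cells, 6.95 and 34.3 CPM, 4.93-fold lower (ratio interval 0.0634 to 0.501). It also had the lowest ratio of the list in cells with 3 or more members, at 0.959 and 27.1 CPM. Its partner Gng13 went the other way, at 210 and 150 CPM, a ratio of 1.40 (1.13 to 1.72). Plcb2, the phospholipase of taste, was at 84.8 CPM in antagonist cells and 62.6 CPM in control cells, and Itpr2, the calcium release channel of the endoplasmic reticulum, at 204 and 276 CPM. Ffar3, a receptor for short-chain fatty acids, was at 164 and 127 CPM. Gnai2, an inhibitory G protein subunit and the most abundant of the list, was at 273 and 321 CPM. Of the 9 genes 3 had intervals above equality, 2 below it and 4 including it. Gnb3 and Tas1r1 were at 0 UMIs.

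Of the eicosanoid list none of 10 measured genes was beyond 1.5-fold, and 2 had intervals above equality, 1 below it and 7 including it. Alox5 came nearest, with a ratio of 1.49 (1.26 to 1.75). Hpgds, the haematopoietic prostaglandin D synthase, was at 200 CPM in antagonist cells and 217 CPM in control cells. Pla2g4a, the cytosolic phospholipase that frees arachidonic acid, was at 175 and 174 CPM. Mgst3, a microsomal glutathione transferase and the most abundant of the list, was at 3832 CPM in antagonist cells and 3416 CPM in control cells, and Mgst1 at 312 and 308 CPM. In cells with 3 or more members Ptges2, Mgst1 and Mgst2 were among the few higher genes. Ptges2 was at 43.9 and 19.5 CPM there and Mgst2 at 110 and 72.2 CPM, while member-rich cells had 13.9 and 18.7 CPM of Ptges2 and 93.2 and 69.8 CPM of Mgst2. Ptges2 was at 34.2 CPM in all antagonist cells and 24.0 CPM in all control cells, so it was no more abundant in member-rich cells than elsewhere. Alox12 was at 0 UMIs.

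Of 8 transcription factors measured, 2 had intervals above equality, 3 below it and 3 including it. Spib, an Ets factor, was at 371 CPM in antagonist cells and 242 CPM in control cells, a ratio of 1.54 (1.31 to 1.80). The homeobox genes Hmx3 and Hmx2 were lower, Hmx3 at 69.5 and 113 CPM, 1.62-fold, and Hmx2 at 103 and 147 CPM, 1.43-fold. Both were also among the lowest ratios of all genes in cells with 3 or more members, at 5.41 and 94.5 CPM for Hmx3 and 7.61 and 122 CPM for Hmx2. Gfi1b, a zinc-finger repressor, was at 38.9 and 33.1 CPM, and Sox9, a factor of crypt and tuft cells, at 522 and 514 CPM. Ascl2, better known from stem cells, was at 18.1 CPM from 13 UMIs in antagonist cells and 53.0 CPM from 88 UMIs in control cells, 2.93-fold lower. In all cells it was at 6.99 and 67.6 CPM. Atoh1, the factor of secretory precursors, had 0 UMIs in member-rich antagonist cells and 4 in member-rich control cells, too few to count as measured. In cells with 3 or more members it was at 8.98 CPM from 131 UMIs in the antagonist library and 4.75 CPM from 10 UMIs in the control library. The ratio there was 1.89, with an interval of 0.996 to 4.03 that includes equality.

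Of 8 cytokine and neural genes measured, 3 had intervals above equality, none had one below it, and 5 had intervals that include it. Of all 8321 genes measured in member-rich cells, 7.35% had intervals above equality and 7.97% below it. Tslp, an epithelial alarmin, was at 26.4 CPM from 19 UMIs in antagonist cells and 12.6 CPM from 21 UMIs in control cells, a ratio of 2.09 (1.06 to 4.09). Il4ra, a receptor chain for the interleukins 4 and 13, had 18 and 27 UMIs, a ratio of 1.54 (0.799 to 2.90). Cd24a, a surface sialoglycoprotein and the most abundant of the list, was at 3767 and 2653 CPM, and Siglecf, a sialic acid-binding lectin, at 287 and 205 CPM. Il17rb, a chain of the Il25 receptor, was at 79.3 CPM in antagonist cells and 67.4 CPM in control cells. Chat, the enzyme of acetylcholine synthesis, was at 33.4 and 30.1 CPM, and Ptprc at 104 and 100 CPM. Il13ra1 was at 146 and 162 CPM. Il1rl1 was at 0 UMIs.

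None of 12 kinase and adaptor genes measured was beyond 1.5-fold, while 8 had intervals above equality, 1 below it and 3 including it. Kctd12, a potassium channel tetramerisation-domain protein, was at 1385 CPM in antagonist cells and 977 CPM in control cells, a ratio of 1.42 (1.31 to 1.53), and Ptpn18, a tyrosine phosphatase, at 943 and 879 CPM. Lrmp, a protein of the endoplasmic reticulum membrane, was at 1024 and 841 CPM, and Inpp5d, an inositol phosphatase, at 160 and 135 CPM. The small GTPase Rac2 was at 412 and 405 CPM. Fyb, an adaptor of Src-family kinases, was the exception, at 716 CPM in antagonist cells and 1050 CPM in control cells, a ratio of 0.683 (0.617 to 0.753).

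Of 11 cytoskeletal genes measured, 4 had intervals below equality, 2 above it and 5 including it, and 2 were lower by 1.5-fold and 1 higher. Ratios under 1 were found for 9 of the 11 and for 53.7% of all genes measured. Krt18, a keratin and the most abundant gene of all 6 lists, was at 11025 CPM in antagonist cells and 14674 CPM in control cells, a ratio of 0.751 (0.732 to 0.771). Tubb5, a beta-tubulin that is also a cycling marker, was 1.68-fold lower, at 171 and 288 CPM, and Svil (supervillin) 1.81-fold lower, at 36.2 and 65.6 CPM. Cap1, an actin-cycling protein, was higher, at 160 and 90.9 CPM, a ratio of 1.76 (1.37 to 2.26). Tuba1a was at 401 and 477 CPM, Espn (espin) at 377 and 417 CPM and Krt23 at 185 and 212 CPM. Vil1 (villin), a relative of Avil, was at 519 CPM in antagonist cells and 404 CPM in control cells.

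**Figure D5:**
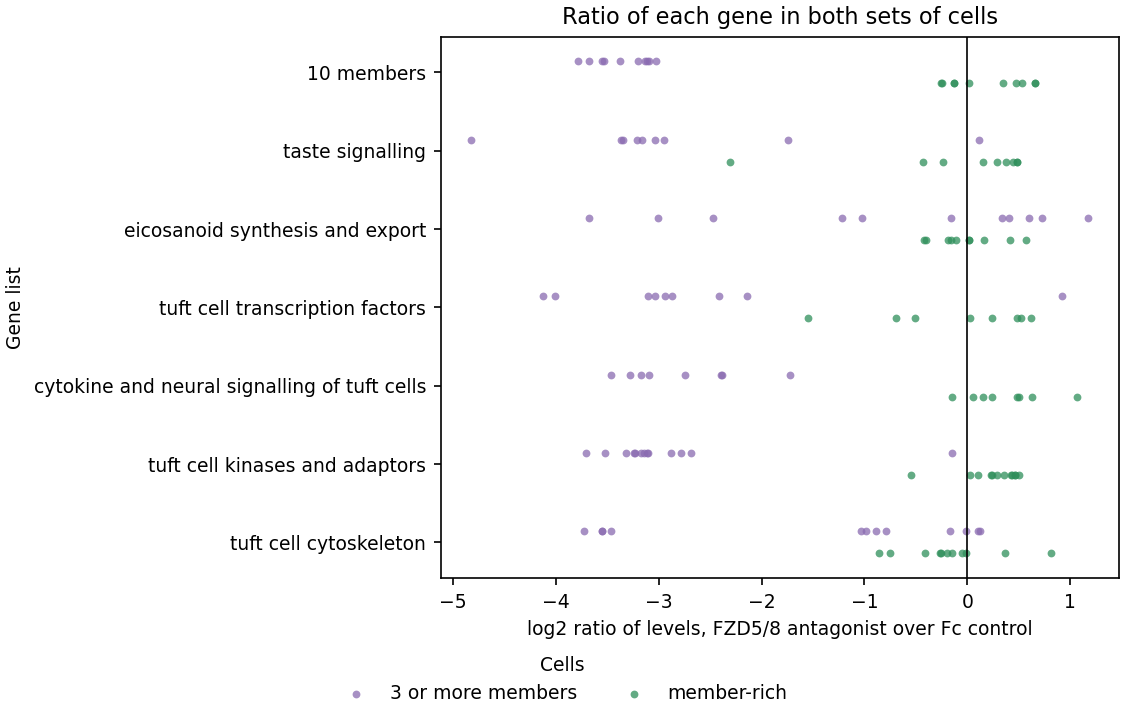
log2 ratio of levels, FZD5/8 antagonist over Fc control, of each measured gene (points) by list, in cells with 3 or more members and in member-rich cells; genes without UMIs in 1 of the libraries are not drawn. The members and most list genes lie near -3 in the first set of cells and around 0 in the second, where the medians are -2.91 over the 62 list genes measured and 0.17 over the 58 measured.

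Over all genes, the extremes in member-rich cells included crypt, enterocyte and goblet cell genes. The lowest 6 ratios of 3057 genes ranked were those of Reg3b, Reg3g, Sox4, Nrep, Olfm4 and Rgmb. Reg3b, an antimicrobial lectin, was at 110 CPM in antagonist cells and 1500 CPM in control cells, 13.7-fold lower, and in cells with fewer than 3 members at 345 and 1353 CPM. Olfm4, a secreted stem cell marker, was at 213 and 946 CPM, and outside at 315 and 2366 CPM. Sox4, a factor of early secretory cells, was at 16.7 and 107 CPM, and outside at 27.2 and 112 CPM. Nrep was at 13.9 and 66.8 CPM but outside at 1.21 and 2.43 CPM, so it was enriched in member-rich cells. In cells with 3 or more members the lowest were Nrep, Lect2, Hmx3, Ppp1r14c, Hmx2 and Mcub.

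The highest 6 ratios in member-rich cells were those of Xist, Zg16, Apoa1, Rbp2, Fabp2 and Chga. Xist had 301 UMIs in antagonist cells and 0 in control cells, at least 231.9-fold higher over a floor of 3 UMIs in the control set, with a lower limit of 187 for the ratio by the exact interval. Zg16, a goblet cell lectin, was at 184 CPM in antagonist cells and 12.6 CPM in control cells, and outside at 1080 and 405 CPM. The enterocyte genes Rbp2, Fabp2 and Apoa1 were at 1235 and 202 CPM, 1273 and 376 CPM, and 163 and 21.7 CPM, and all 3 were also higher in antagonist cells outside. Chga, of enteroendocrine cells, was at 108 and 32.5 CPM, while outside it was at 19.0 and 20.2 CPM. In cells with 3 or more members Xist, Zg16, Clca1, Gsta1, Apoa1 and Apoa4 came first, with Zg16 at 1709 and 14.7 CPM. Summed over its 14 markers the stem cell list was at 583 CPM in member-rich antagonist cells and 1875 CPM in member-rich control cells, and outside at 911 and 4440 CPM. The cycling list was at 1099 and 1163 CPM in member-rich cells, and outside at 2839 and 2394 CPM.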

How the data were processed

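Per the labels, GFP-sorted jejunal cells gave 1 10x 3′ library (V3.1 NextGEM) per condition, from 3 mice. The authors deposited raw UMI counts for each gene in each barcode, without normalization. Per the submitters' processing notes they used Cell Ranger, with GRCm38 (mm10) as the genome. Per the file headers the software version was 3.1.0. The sources used here do not give the annotation release, the barcode selection or any doublet removal. A doublet caller was not run.

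Cells were kept from 500 genes upward and up to 20% mitochondrial UMIs. UMIs were summed over a set of cells and divided by the set's total (CPM). Levels have exact Poisson, ratios exact conditional binomial and shares exact Clopper-Pearson 95% intervals, which cover counting error only. No significance test was made. The ratio intervals were checked on simulated independent Poisson counts with known ratios. The intervals assume such counts, so the check says nothing of UMIs that are clustered in single cells. For thinning, 3000 UMIs were drawn from each cell with at least as many. The members, the 6 lists, the markers and the rules were chosen with earlier results of these data known. A gene was measured with 20 or more UMIs over both libraries. Genes named from a list are those beyond 1.5-fold in cells with 3 or more members, at most 4 per direction, and the 2 most abundant. The 12 genes most like the members needed 50 UMIs per library, and the 6 highest and 6 lowest ratios needed 100 UMIs over both libraries and 50 CPM in 1 of them. Member-rich cells and the genes named from them were chosen after the data were seen. Promoters came from RefSeq (GRCm38.p6) and coordinates from GENCODE on GRCm38. edgeR 4.0.16 (R 4.3.3) gave TMM factors only. Alternatives were other cell filters, thinning, other limits on members, scalings and the removal of deep cells, cells with immune markers and shared barcodes. One gene is not reported here and was left out of the tuft cell marker check, but not of the counts over lists. Levels by clustered cell type were not computed.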

Additional observations from a re-analysis of the deposited data

How the results depend on the processing

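Values are log2 ratios, antagonist over control. The share of cells with 3 or more members was at 1.17. It turned to -0.30 in thinned cells, where the intervals of the shares overlap, and to -0.081 with at least 50 member UMIs per 10000. It was 1.51 with 2 members, 0.81 with 4, 0.80 without the deepest 2% of cells, 0.43 without cells above 10000 UMIs, and 0.026 and 0.15 with at least 20 and 10 member UMIs per 10000. The summed level in all cells was at -0.23 and turned to 0.24 with equal weight for each cell. It was -0.43 with 1000 genes per cell, -0.85 in thinned cells, -0.16 without the deepest 2%, -0.18 without shared barcodes, -0.10 with TMM and -0.13 without cells above 10000 UMIs. The summed level in cells with 3 or more members was at -3.50, against 0.0016, -0.12 and 0.0065 with at least 20, 10 and 50 member UMIs per 10000. It was -3.78 with 1000 genes, -1.03 thinned, -2.10 without the deepest 2%, -3.37 without cells with 2 immune markers, -2.86 without shared barcodes, -3.54 with 2 members, -3.25 with 4, -3.30 with TMM, -1.10 with equal weight and -0.74 without cells above 10000 UMIs.

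List genes lower by 1.5-fold in all cells numbered 14, with 31 in thinned cells and 6 at 2-fold, and those higher 2, with 14 under equal weight and 1 at 2-fold. In cells with 3 or more members 49 were lower, with 5, 7 and 3 at 20, 10 and 50 member UMIs per 10000 and 23 without cells above 10000 UMIs. There 4 were higher, with 7 without a minimum of UMIs, 1 at 2-fold, 2 at 10 member UMIs per 10000 and 1 without cells above 10000 UMIs.

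Single members whose interval lay clear of equality turned round as follows. In all cells Sh2d6 was at -0.13 with 1000 genes and -0.60 thinned, Avil at 0.0010 with TMM, and Dclk1, Rgs13 and Avil at 0.10, 0.19 and 0.22 with equal weight. Of members whose interval included equality, Ptgs1 went from 0.18 to -0.10 with 1000 genes and -0.65 thinned, Trpm5 from 0.025 to -0.23, -0.71 and, with at most 10% mitochondrial UMIs, -0.012. Pou2f3, at -0.017, and Il25, at -0.023, were above 0 under several settings, highest with equal weight at 0.50 and 0.89. Shares in thinned cells were -0.026 for Trpm5, -0.36 for Ptgs1 and -0.16 for Avil, each with overlapping intervals of the shares. In cells with 3 or more of the other members, at least 20, 10 and 50 UMIs of these per 10000 gave 0.64, 0.51 and 0.66 for Pou2f3, 0.36, 0.23 and 0.34 for Trpm5, 0.65, 0.50 and 0.72 for Il25, 0.53, 0.41 and 0.49 for Ptgs1 and 0.50, 0.34 and 0.43 for Sh2d6. Avil was at 0.045 with 20. The cause was not tested.

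The limits on member UMIs per 10000 and the removal of cells above 10000 UMIs were chosen after seeing the data. TMM and equal weight give no share of cells. No paired analysis was possible because each condition has 1 library. Depth limits Il25 most, with 21 and 26 UMIs.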
